A study of Mus musculus with 48 samples.

Results

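Of 17258 genes measured in 4 mouse brain tissues, 145 were kept for a daily rhythm fitted to all tissues together. Their fitted crests lay between Zeitgeber time (ZT, hours after lights-on) 11 and 17, around the change from light to dark. When each tissue was fitted alone, 55 of the 145 crested in that span in all 4. The 145 include clock output genes, genes known to respond to glucocorticoid hormone and transporters of the blood-brain barrier. Male C57BL/6 mice were held under 12 h of light and 12 h of dark and killed every 4 h from ZT11 over 2 successive days. The habenula (HAB), the striatum (STR), the prefrontal cortex (PFC) and the substantia nigra with ventral tegmental area (SN/VTA) were taken at ZT03, ZT07, ZT11, ZT15, ZT19 and ZT23. There was no treatment and no genetic change, and the age of the mice was not given in the sources used here. RNA of 3 mice was pooled for each of 48 Affymetrix Mouse Gene 2.0 ST arrays, so each tissue and time has 2 arrays, 1 from each 24-h cycle. P-values therefore measure the spread between pools, and the labels do not say whether the 4 tissues of one time and cycle came from the same mice. Precision is limited by the number of arrays.

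The genes were chosen from these same values. Each tissue's mean was subtracted, a 24-h cosine and sine were fitted over the 48 arrays, and genes were kept with an F test p under 0.001 and a fitted peak from ZT11 to before ZT17. That window held 159 genes, 0.921% of those tested, and 704 genes (4.08%) passed the p at any peak. A further 14 well-known rhythmic genes in the window, among them Dbp, Per1, Per3, Sgk1 and Egr1, were left out by name, which leaves 145. When the 4 tissues of each time and cycle were averaged to 12 values, 36 genes met the rule, 29 of them among the 145. Their amplitude, peak time and values over the day are therefore a description, and no test of them is given. At the p threshold, Vcl lay just inside (9.92e-04) and Il1rap just outside (0.00103). At the early edge of the window Slc7a5, with a fitted peak at ZT11.0394, lay inside and Slc6a8, at ZT10.997, outside. At the late edge Ppp1r13b (ZT16.99) lay inside and Syvn1 (ZT17.1) outside.

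Nearly every cell keeps a molecular clock in which CLOCK and BMAL1 bind E-box sequences and drive their own repressors, the PER and CRY proteins, together with PAR bZIP factors such as TEF that bind D-box sequences. Light reaches the master clock of the hypothalamus, which in turn times feeding, body temperature and the adrenal release of glucocorticoid. In nocturnal rodents glucocorticoid rises before dark, and its receptor switches on target genes in neurons, glia and vessels. Dopamine pathways run from the SN/VTA to the striatum and prefrontal cortex, and the habenula sends inhibitory control to them.

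The dissections matched their labels. Each marker gene measured for dopamine neurons, cortical neurons, medium spiny neurons and habenula neurons was highest in its own tissue, with a mean level on the log2 scale of 10.3 for the dopamine list in the SN/VTA against 6.11 in the PFC. HAB samples also carried neighbouring tissue: the array means of the 8 choroid plexus markers ranged from 6.94 to 9.21 there, against 5.72 to 6.07 in the PFC. None of the choroid plexus, thalamus, hippocampus, astrocyte or microglia markers measured passed the p of the rule, and 2 of 8 oligodendrocyte markers passed with a peak outside the window.

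The rhythms were small. The amplitude, from mean to crest on the log2 scale, ran from 0.0393 to 0.288 with a median of 0.110, against 0.0420 over all genes tested. The largest corresponds to a 1.49-fold swing from trough to crest. The members' mean level was 5.78 to 11.9 with a median of 8.26, against 7.19 over all genes. The 8 arrays of a time, after each tissue's mean was subtracted, had their highest mean at ZT11 in 73 members, at ZT15 in 65 and at ZT19 in 7. The lowest mean was at ZT03 in 79 members, at ZT23 in 36, at ZT07 in 26 and at ZT19 in 4. Of the 73 members with a fitted peak before ZT14, 34 were lowest at ZT23 and 1 at ZT07. Of the 72 that peaked from ZT14 on, 2 were lowest at ZT23 and 25 at ZT07. The early members mostly had their trough at the end of the night or early in the day, and the late ones mostly in the light phase. A cosine has its trough opposite its crest, so the split by fitted peak largely set these counts.

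**Figure D1:**
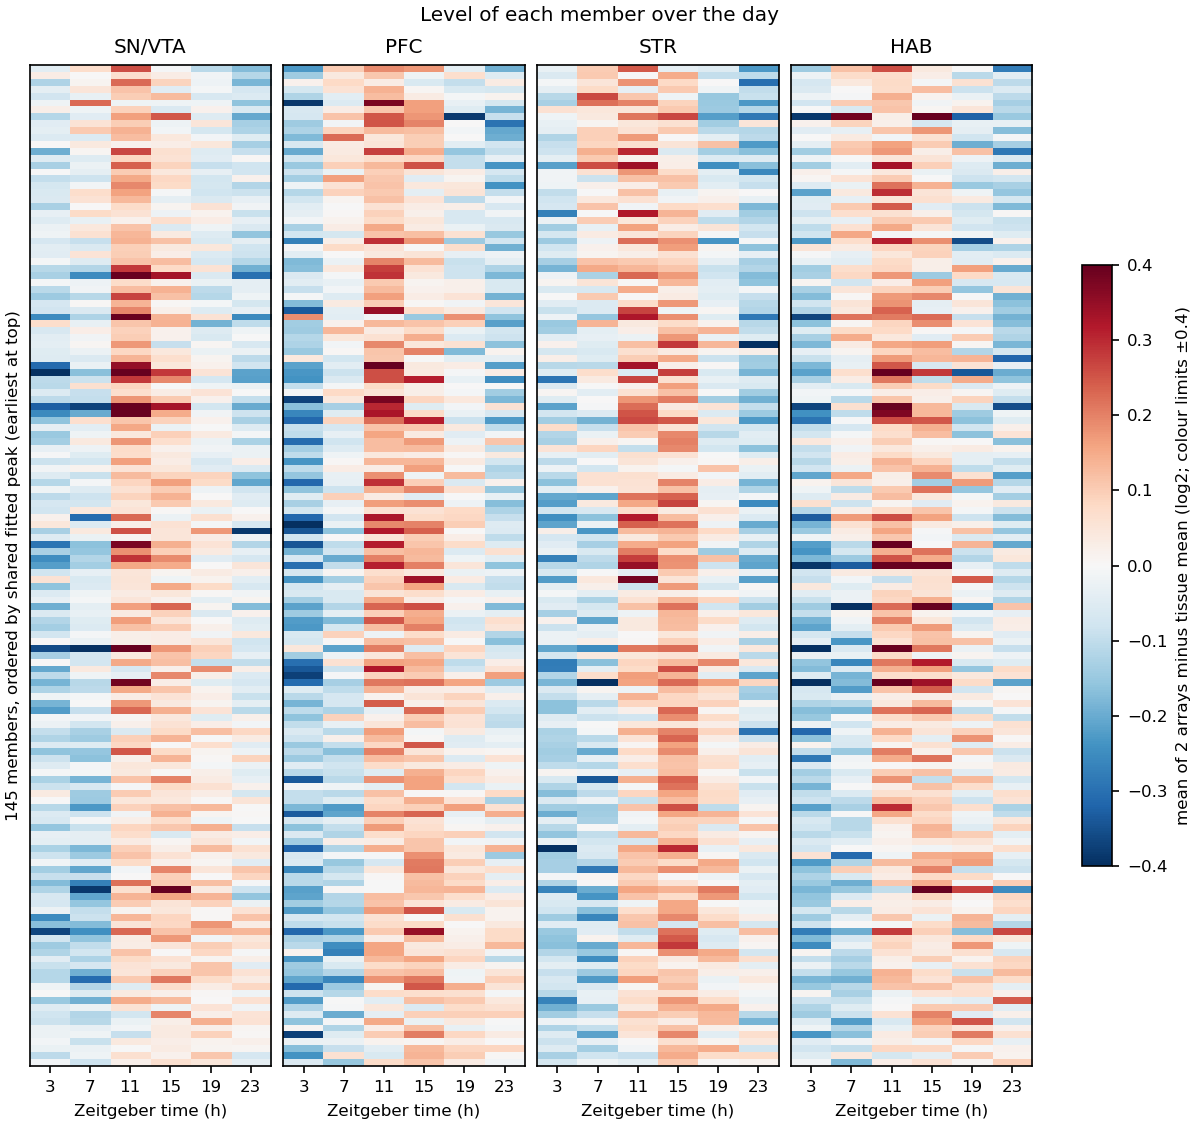
Heat map of the 145 members, 1 row each, ordered by fitted peak from top to bottom, with Zeitgeber time in hours on each horizontal axis and 1 panel per tissue. Colour gives the mean of 2 arrays minus the tissue mean on the log2 scale, cut at ±0.4; red at ZT11 and ZT15 runs through all 4 panels, and the blue trough moves from ZT23 and ZT03 at the top to ZT03 and ZT07 at the bottom.

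Each tissue was also fitted alone. The fitted peak lay inside the window in all 4 tissues for 55 members, in 3 for 63, in 2 for 25 and in 1 for 2. The median amplitude was 0.124 in the PFC, 0.122 in the STR, 0.108 in the HAB and 0.0975 in the SN/VTA. The PFC had the largest amplitude in 55 members, the STR in 38, the HAB in 31 and the SN/VTA in 21. The fitted peaks of the 2 cycles lay a median of 1.33 h apart and at most 3.80 h apart. The rule was fitted to both cycles and all 4 tissues together, so the closeness of these peaks is part of the choice. In 111 members the ZT11 and ZT15 arrays of at least 1 tissue all lay above its ZT23 and ZT03 arrays, where 9.87% of all genes tested did so. In 49 members this held in at least 2 tissues (0.846% of all genes), in 15 in at least 3, against 0.162% of all genes, and in Mthfd1l and Coq10b it held in all 4, against 0.0464%. The rule used this contrast, so these counts describe the choice.

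Mthfd1l, a mitochondrial enzyme of the folate cycle, had a shared amplitude of 0.24 ± 0.03 (SE) and a peak at ZT13.0. In the PFC its 2 arrays read 6.74 and 6.49 at ZT03, 6.96 and 7.08 at ZT07, 7.06 and 7.25 at ZT11, 7.35 and 7.15 at ZT15, 6.78 and 6.90 at ZT19, and 6.75 and 6.66 at ZT23. No array at ZT11 or ZT15 came down to the highest array at ZT23 or ZT03. Coq10b, a mitochondrial protein that binds coenzyme Q, had an amplitude of 0.18 ± 0.03 and a peak at ZT11.9. Its PFC arrays read 8.01 and 7.96 at ZT03, 8.51 and 8.58 at ZT11, 8.46 and 8.41 at ZT15, and 8.08 and 8.15 at ZT19. Coq10b was high at ZT11 and ZT15 and already low at ZT19, and 1 HAB array at ZT19 lay 0.53 below its tissue mean.

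**Figure D2:**
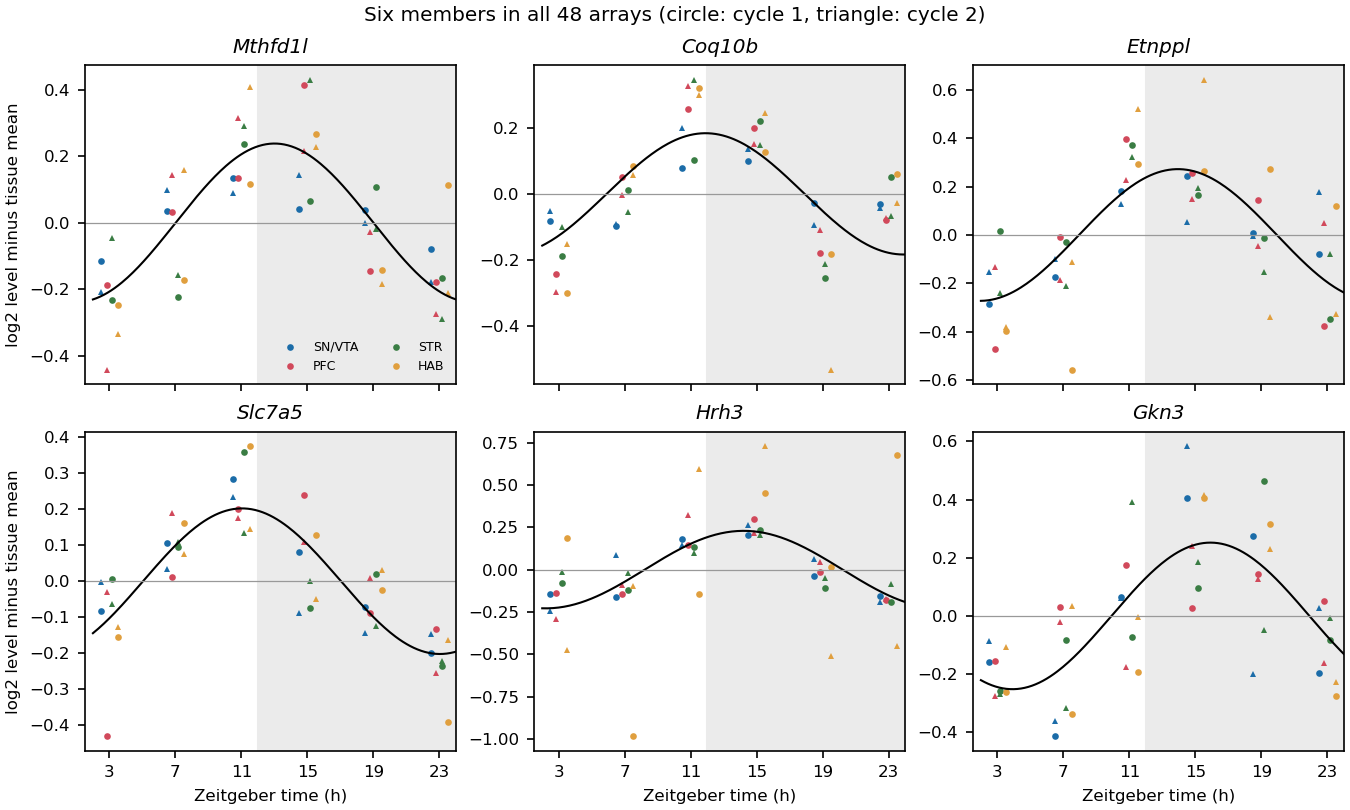
Log2 level minus the tissue mean against Zeitgeber time in hours for Mthfd1l, Coq10b, Etnppl, Slc7a5, Hrh3 and Gkn3 in all 48 arrays, coloured by tissue, with circles for cycle 1 and triangles for cycle 2; the line is the shared 24-h cosine and shading marks the dark phase. The Mthfd1l and Coq10b points crest at ZT11 and ZT15, those of Gkn3 at ZT15 and ZT19, and the HAB points of Hrh3 spread from −0.98 to 0.73.

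Because clock factors bind E-boxes and D-boxes, the DNA before the start of the members with the larger amplitudes was read for these letters. Coq10b holds both, and Gkn3, a secreted gastrokine known from arteries, holds a D-box 43 bases before its start. Below are the 250 bases before the start of each, 5′ to 3′ on the strand of the gene, from RefSeq (build GRCm38.p6), with the D-box (TTATGTAA, read here on the opposite strand) and the E-box (CACGTG) in capitals. The Coq10b stretch is chr1:55052520-55052769 on the plus strand, and the Gkn3 stretch is chr6:87388936-87389185 on the minus strand. Neither overlaps an annotated gene.
Coq10b: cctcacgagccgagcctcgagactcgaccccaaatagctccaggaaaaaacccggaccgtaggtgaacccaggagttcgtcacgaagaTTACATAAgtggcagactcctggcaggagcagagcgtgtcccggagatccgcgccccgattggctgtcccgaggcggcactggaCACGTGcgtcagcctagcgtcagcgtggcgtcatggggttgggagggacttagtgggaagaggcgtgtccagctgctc
Gkn3: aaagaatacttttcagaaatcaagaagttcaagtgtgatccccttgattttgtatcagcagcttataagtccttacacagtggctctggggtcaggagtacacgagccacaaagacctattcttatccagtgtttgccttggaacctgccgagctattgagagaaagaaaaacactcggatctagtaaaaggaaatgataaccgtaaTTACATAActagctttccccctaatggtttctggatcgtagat
In Coq10b the D-box starts 162 and the E-box 78 bases before the start of the gene.

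Shorter windows, with 10 bases on either side of the motif, show sites of other members with large amplitudes. An E-box before Lonrf3 and a cAMP response element before Abcg2 are not shown. Klf15 (plus strand) holds a pair of E-boxes, at chr6:90462338-90462363 and chr6:90462394-90462419. Slc16a12 (minus strand) holds a D-box at chr19:34747387-34747414 and an E-box at chr19:34747553-34747578. Net1 (minus strand) holds an E-box at chr13:3893587-3893612, and Tef (plus strand) holds 1 before each of a pair of annotated starts, at chr15:81802536-81802561 and chr15:81811266-81811291. All are upstream of an annotated start in GRCm38.p6, and the capitals again mark the motif. For Klf15, Slc16a12, Net1 and the second Tef start, the 250 bases before the start overlap the annotated span of the gene itself. Those before the first Tef start overlap a predicted gene.
Klf15 E-box, far: cccgaggtccCACGTGgtctgcactt
Klf15 E-box, near: gaacccgtctCACGTGcgcatcggag
Slc16a12 D-box: ggcctaagcaTTACATAAcctggaggcg
Slc16a12 E-box: ttgcaagatgCACGTGcaggagactt
Net1 E-box: tatcgggagtCACGTGggtcctggcc
Tef E-box, first start: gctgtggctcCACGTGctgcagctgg
Tef E-box, second start: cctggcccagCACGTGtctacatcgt
Of the members, 123 had promoters in the RefSeq table. For the shares below, both strands were searched from 250 bases before the start to 50 bases after it. A counted match can therefore lie past the start, unlike the sites shown above. An E-box was found in this stretch in 15 of the 123 members (12.2%), against 10.7% of the 13318 tested genes with a promoter. A D-box (TTATGTAA or TTACGTAA) was found in 4 (3.25%), namely Coq10b, Gkn3, Slc16a12 and Txndc16, against 0.931%. The E-box variant CACGTT was found in 4.88% against 6.04%, and the full cAMP response element TGACGTCA in 4.07% against 3.04%. The core of the glucocorticoid response element (ACANNNTGT) was found in 4.88% against 5.8%, and the heat shock element (GAANNTTC) in 6.5% against 7.22%. The first 5 letters of the cAMP response element (TGACG) were found in 35% against 30.9%, and the ROR element NTAGGTCA in 2.44% of both. The ER stress element was found in 0 members and 0.15% of tested genes. In all 32851 promoters of the table the E-box share was 7.15% and the D-box share 1.06%. A match is a run of letters and not evidence of binding.

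The clock list had 22 measured genes, of which 16 passed the p of the rule and 11 peaked in the window. After 7 of those were left out by name, 4 were members: Tef, Bhlhe40, Wee1 and Cry2. Over all genes tested, 4.08% passed the p, and 0.921% passed it with a peak in the window. The gene lists used here and below were chosen with earlier results of these data known. Tef, a PAR bZIP factor that binds D-boxes, had an amplitude of 0.17 and a peak at ZT12.9. In the PFC its arrays read 7.23 and 7.43 at ZT03 and 8.12 and 8.03 at ZT11, while in the HAB they read 8.08 and 8.14 at ZT03 and 8.07 and 8.40 at ZT11. The fitted Tef amplitude was 0.29 in the PFC and 0.08 in the HAB, and the tissue difference had an unadjusted p of 0.0974 by limma's moderated F test. Bhlhe40, a repressor that competes for E-boxes, peaked at ZT11.3. Its amplitudes were 0.29 in the PFC, 0.25 in the STR, 0.11 in the SN/VTA and 0.10 in the HAB. By the same limma test its tissue difference had an unadjusted p of 0.0334 and an adjusted p of 0.705. Cry2, a repressor of CLOCK and BMAL1, had an amplitude of 0.12 and a peak at ZT13.2. Wee1, a kinase that delays cell division and a textbook clock output, was the last of the 4, at ZT15.8 with an amplitude of 0.13.

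The members known to respond to glucocorticoid stood highest late in the light phase. Of 35 genes of that list measured, 16 passed the p of the rule and 12 of them peaked in the window. After 5 were left out by name, 7 were members. Among all genes tested, 4.08% passed the p and 0.921% did so with a peak in the window. All 7 had their highest mean at ZT11, as 73 of all 145 members did. Before ZT14, 6 of the 7 peaked, and 73 of the 145. The rule set the window of the peaks, so these counts describe the choice. Plin4, which coats lipid droplets, had the largest amplitude of the 7, 0.28 ± 0.05, with a peak at ZT12.9. Its SN/VTA arrays read 6.44 and 6.39 at ZT03, 7.36 and 7.40 at ZT11, 7.09 and 7.06 at ZT15, and 6.26 and 6.83 at ZT23. In the PFC they read 5.98 and 5.91 at ZT03 and 6.30 and 6.52 at ZT11. The Plin4 amplitude was 0.44 in the SN/VTA, 0.43 in the HAB, 0.16 in the STR and 0.11 in the PFC. No member, Plin4 included, passed limma's moderated F test of a tissue difference at an adjusted p under 0.05.

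Mertk, the receptor tyrosine kinase with which glia clear cell debris, had an amplitude of 0.22 and a peak at ZT13.8. Over the 8 arrays of a time, its level minus the tissue mean was −0.41, −0.28 and −0.04 (lowest, median and highest) at ZT03. At ZT11 it was 0.11, 0.32 and 0.50. The rule chose members by their values over these hours, so the gap between ZT03 and ZT11 describes the choice. Klf15, a Krüppel-like factor that controls amino acid and glucose metabolism, ran from −0.41 to −0.07 at ZT03 and from 0.20 to 0.48 at ZT11. Its ZT15 arrays, from −0.16 to 0.21, had already come back to around the tissue mean. Nfkbia, the inhibitor of NF-kappaB, had an amplitude of 0.17 and a peak at ZT12.3, and Sult1a1, a sulfotransferase of phenols and catecholamines, 0.19 and ZT13.6. Klf9, a Krüppel-like factor, peaked at ZT11.1 with an amplitude of 0.11, and Gjb6, the astrocyte connexin 30, at ZT16.2 with 0.14. The gap junction gene was the only late member of the 7.

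Transporters and other vessel genes formed a group of 11 members, gathered, like the groups that follow, after the members were seen. Its median amplitude was 0.166, and 7 of the 11 were highest at ZT11, as were 73 of all 145 members. Slc7a5, which carries large neutral amino acids and L-DOPA across the blood-brain barrier, had an amplitude of 0.20 ± 0.02 and a peak at ZT11.0. In the STR its arrays read 8.96 and 8.89 at ZT03, 9.05 and 9.06 at ZT07, 9.31 and 9.09 at ZT11, 8.88 and 8.95 at ZT15, 8.98 and 8.83 at ZT19, and 8.72 and 8.73 at ZT23. The 8 arrays at ZT11 ran from 0.13 to 0.37 above the tissue mean, and the 8 at ZT23 from −0.39 to −0.13.

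Slc2a1, the glucose carrier GLUT1, had an amplitude of 0.15 and a peak at ZT12.5. Its PFC arrays read 9.95 and 9.81 at ZT03, 10.54 and 10.59 at ZT11, and 10.28 and 10.28 at ZT15. Slco1a4, an organic anion carrier, peaked at the same fitted hour with an amplitude of 0.14. Abcg2, a drug efflux pump, peaked at ZT12.6 with an amplitude of 0.17, and Atp10a, a phospholipid flippase, at ZT13.9 with 0.20. Mfsd2a, which carries lysophospholipids with docosahexaenoic acid into the brain, came later, at ZT16.4 with an amplitude of 0.17. Gkn3 had an amplitude of 0.25 and a peak at ZT15.9. Its SN/VTA arrays read 5.90 and 5.95 at ZT07 and 6.72 and 6.89 at ZT15.
Slc38a2, a sodium-coupled amino acid carrier, peaked at ZT15.9 with 0.16, and Slc16a12, a monocarboxylate carrier that takes creatine, at ZT11.3 with 0.25. Cavin2, a coat protein of caveolae, peaked at ZT13.3 with 0.13.

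Markers of endothelial cells were split in their timing. Of the 9 measured, 5 passed the p of the rule, against 4.08% of all genes. Among these 5, 2 peaked in the window, Slc2a1 and Slco1a4, where 0.921% of all genes passed. Cldn5, a tight junction protein, peaked at ZT22.8 with an amplitude of 0.21, Flt1 at ZT21.1 with 0.10 and Kdr at ZT23.4 with 0.13. Pecam1, Cdh5, Tek and Abcb1a did not pass. The mean of the 9 markers lay 0.08 below the tissue mean at ZT11 (SD 0.06, n = 8) and 0.05 above it at ZT19 (SD 0.08, n = 8). Of the 8 pericyte and smooth muscle markers 1 passed, Vtn, with a peak at ZT4.35. In pieces of tissue fewer cells of a type and less RNA per cell cannot be told apart.

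**Figure D3:**
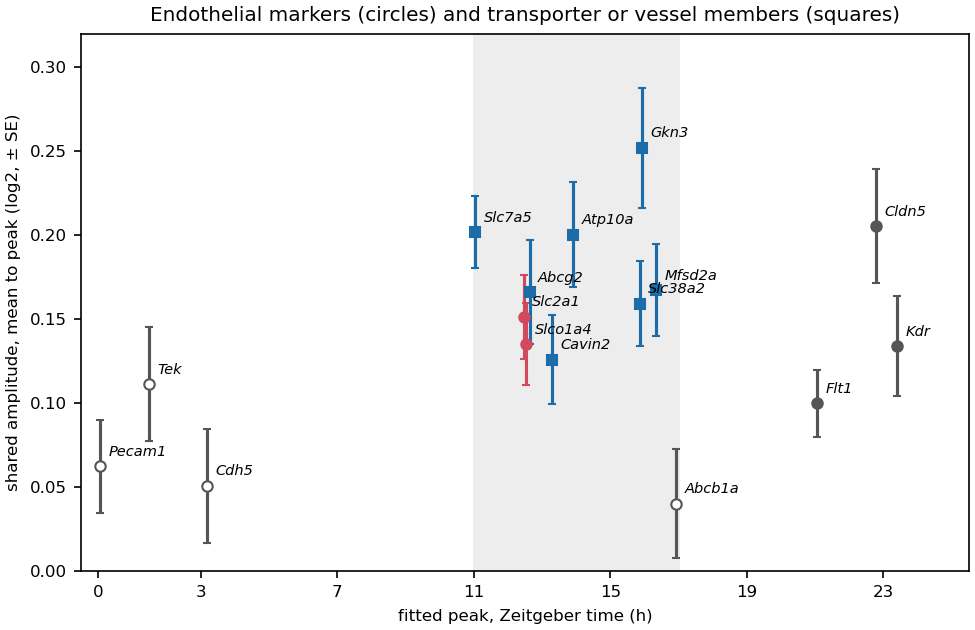
Shared amplitude from mean to crest (log2, vertical bars ± SE) against fitted peak in Zeitgeber hours for the 9 endothelial markers measured (circles; red where they are members, open where they missed the p of the rule) and 7 transporter or vessel members (blue squares), with the window shaded. Slc2a1 and Slco1a4 sit at ZT12.5 among the squares, and Cldn5, Flt1 and Kdr sit from ZT21.1 to ZT23.4.

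Phospholipid and choline genes made a group of 6. Etnppl, which breaks down phosphoethanolamine and is found in astrocytes, had the largest amplitude of the group, 0.27 ± 0.04, with a peak at ZT13.9. Its HAB arrays read 7.36 and 7.38 at ZT03, 8.05 and 8.28 at ZT11, 8.02 and 8.40 at ZT15, and 8.03 and 7.42 at ZT19. All 8 arrays at ZT11 lay 0.13 or more above their tissue mean, and at ZT03 the highest of the 8 lay 0.01 above it. Gpcpd1, which cleaves glycerophosphocholine, peaked at ZT11.3 with an amplitude of 0.13, whereas Chka, the kinase that starts phosphatidylcholine synthesis, peaked at ZT16.3 with 0.11. Sgms1, a sphingomyelin synthase, peaked at ZT14.7, and the phosphoinositide enzymes Mtmr2 and Pik3c2a at ZT11.6 and ZT11.8.

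The PAQR family of membrane receptors gave 3 members. Adipor2, a receptor of adiponectin, had an amplitude of 0.21 and a peak at ZT13.0. Its 8 arrays at ZT11 ran from 0.22 to 0.47 above the tissue mean. The 8 at ZT07 ran from −0.25 to 0.05 and those at ZT03 from −0.44 to −0.01. Paqr5 and Paqr8, membrane progestin receptors, peaked at ZT11.4 with an amplitude of 0.19 and at ZT16.3 with 0.12. Of the 8 family genes measured, 4 passed the p of the rule, against 4.08% of all genes. The 3 members passed it in the window, as 0.921% of all genes did. Paqr6 also passed, but with a peak at ZT4.87. Adipor1, Paqr4, Paqr7 and Paqr9 did not pass.

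Among other metabolic genes, Gpt2, a mitochondrial alanine aminotransferase, peaked at ZT15.1 with an amplitude of 0.14. Glul, the astrocyte glutamine synthetase, had the smallest amplitude of all members, 0.0393, and the highest mean level, 11.9. The phosphorylase kinase subunits Phka1 and Phka2, which govern glycogen breakdown, peaked at ZT15.7 and ZT11.9.

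Most rhythmic genes of the stress lists peaked outside the window, as did most rhythmic genes of any kind. Over all genes, 159 of the 704 that passed the p peaked in it. Of 36 genes for chaperones of the endoplasmic reticulum and the unfolded protein response, 16 passed the p, against 4.08% of all genes. In the window, where 0.921% of all genes passed, 2 of them peaked. Both were members, Herpud1 at ZT13.9 and Ero1a at ZT15.4. Hspa5, the main chaperone of that compartment, peaked at ZT18.8, outside the window. Of 25 cytosolic heat shock genes 14 passed, against the same 4.08% of all genes, and 2 of them peaked in the window (0.921% of all genes). Hspa1b, with an amplitude of 0.49 and a peak at ZT16.9, was left out by name, and Hspa2, at ZT16.1 with an amplitude of 0.10, was the member. Nfe2l2, the NRF2 factor of the antioxidant response, had an amplitude of 0.13 and a peak at ZT15.1, and its target Gclm, a subunit of the enzyme that makes glutathione, 0.05 and ZT13.3.

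RNA processing genes made a group of 13 with a median amplitude of 0.0882, against 0.110 over all members. The kinases Clk1 and Clk4, which phosphorylate splicing factors, peaked at ZT14.7 and ZT12.4, and Srsf2, a splicing factor of that class, at ZT13.2. The 8 Clk1 arrays at ZT03 all lay below the tissue mean, from −0.23 to −0.10. Ddx5, an RNA helicase, peaked at ZT16.0 with an amplitude of 0.12, and Pcf11 and Cpsf4, which act in 3′ end processing, at ZT12.7 and ZT11.4. Cnot6 and Tnrc6a, which act in mRNA decay and microRNA silencing, peaked at ZT16.5 and ZT11.4.

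The ubiquitin group had 7 members with peaks from ZT11.1 (Ubr7) to ZT15.9 (Neurl1b), 6 of them before ZT14. Among all 145 members, 73 peaked before ZT14. From the list of ubiquitin ligases and deubiquitinases, 5 of 26 genes passed the p of the rule and Usp54 was the member, at ZT13.3 with an amplitude of 0.10. In the list of kinase, phosphatase and MAPK feedback genes 6 of 25 passed and Camk1g was the member. For these lists too, the share over all genes tested was 4.08% for the p and 0.921% for the p with the window. No member came from the lists of synaptic adhesion genes (2 of 25 passed), potassium channels (0 of 27), cholesterol and fatty acid genes (3 of 17) or immediate early genes (7 of 27 passed, with 2 in the window left out by name).

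Hrh3, the histamine autoreceptor that restrains release of histamine and dopamine, led the signalling group with an amplitude of 0.23 ± 0.05 and a peak at ZT14.2. In the SN/VTA its arrays read 9.53 and 9.43 at ZT03, 9.52 and 9.77 at ZT07, 9.86 and 9.83 at ZT11, 9.88 and 9.94 at ZT15, 9.64 and 9.74 at ZT19, and 9.53 and 9.49 at ZT23. In the HAB the 2 arrays differed far more, with 8.36 and 9.25 at ZT07 and 10.03 and 8.90 at ZT23. The mean of the 8 thalamus markers ranged from 8.48 to 10.1 over the HAB arrays, and its part in the Hrh3 values was not tested. The other signalling members were Camk1g, a calmodulin kinase, at ZT14.0, Spry3, an inhibitor of growth factor signalling, at ZT16.5, Fgfr3, a receptor of fibroblast growth factors, at ZT15.8, and the tyrosine phosphatases Ptpn1 and Ptpn11 at ZT15.9 and ZT11.4.

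The other 74 members fell into no group. Cdh19, a cadherin of glia, had the largest amplitude of all members, 0.29 ± 0.04, with a peak at ZT14.6. In the HAB its arrays read 5.98 and 5.89 at ZT03, 7.17 and 6.80 at ZT11, 6.71 and 6.92 at ZT15, and 6.15 and 6.38 at ZT23. The chemokine Ccl17 had an amplitude of 0.22 and a peak at ZT11.4, the mitotic protein Fam83d 0.25 and ZT12.8, and the small membrane protein Smim3 0.21 and ZT12.8. Plekhf1, a lysosome protein, had 0.20 and ZT12.5. Pkp2, a desmosome protein, had 0.19 and ZT13.7, Banp, a nuclear matrix protein, 0.19 and ZT16.1, and Net1, an exchange factor for RhoA, 0.19 and ZT12.4. Arid5b, a DNA-binding protein, had 0.17 and ZT14.7, and Kirrel2, an adhesion protein of the immunoglobulin family, 0.17 and ZT15.5.

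Whether the rhythm differed between tissues was tested with 6 interaction terms of tissue with the cosine and sine, which are independent of the shared terms of the rule. The spread these terms measure was part of the rule's error, so the choice is tilted toward members with small differences. With limma's moderated F test and Benjamini-Hochberg adjustment over all genes, 0 of 145 members passed, against 0.029% of all genes. At an unadjusted p under 0.05, 17 members (11.7%) passed, against 6.65% of all genes. The smallest p was that of Crmp1, a protein that guides axons, at 4.78e-04 (limma adjusted p = 0.266). Crmp1 had an amplitude of 0.26 in the PFC and of 0.04 to 0.08 in the other tissues. In the PFC its arrays read 10.09 and 10.11 at ZT03 and 10.49 and 10.51 at ZT11, apart from each other, and in the STR 9.40 and 9.52 at ZT03 and 9.69 and 9.38 at ZT11, overlapping. A p that misses the threshold does not show that the tissues were alike.

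Beside the 24-h cosine, a 12-h component shared by the tissues was found in 4 members (2.76%; 0.0985% of all genes) by limma's moderated F test at an adjusted p under 0.05, and in 31 (21.4%; 6.92% of all genes) at an unadjusted p under 0.05. The median 12-h amplitude was 0.0363 in the members and 0.0338 over all genes. Mfsd2a had a 12-h amplitude of 0.12 ± 0.02 (adjusted p = 0.0131), Adipor2 0.13 ± 0.02 (0.0131), Coq10b 0.12 ± 0.02 (0.0197) and Chka 0.09 ± 0.02 (0.0299), each by limma. These components crest within an hour of ZT12 and of ZT0, so the levels went up faster into ZT11 than a cosine does. In the PFC, Mfsd2a read 8.20 and 8.34 at ZT07, 8.73 and 8.69 at ZT11, 8.60 and 8.43 at ZT19, and 8.73 and 8.53 at ZT23. In the SN/VTA, Adipor2 read 8.66 and 8.63 at ZT07 and 9.28 and 9.22 at ZT11. The Chka result was lost in 12 of the 48 fits without 1 array, with an adjusted p from 0.0513 to 0.0665, and with each array centred on its median (0.0502). Those 12 arrays were SN/VTA at ZT07 of cycle 1 and ZT23 of cycle 2, PFC at ZT19 and ZT23 of cycle 2, STR at ZT07 of cycle 1 and at ZT11, ZT19 and ZT23 of cycle 2, and HAB at ZT11 of both cycles and at ZT07 and ZT23 of cycle 2.

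**Figure D4:**
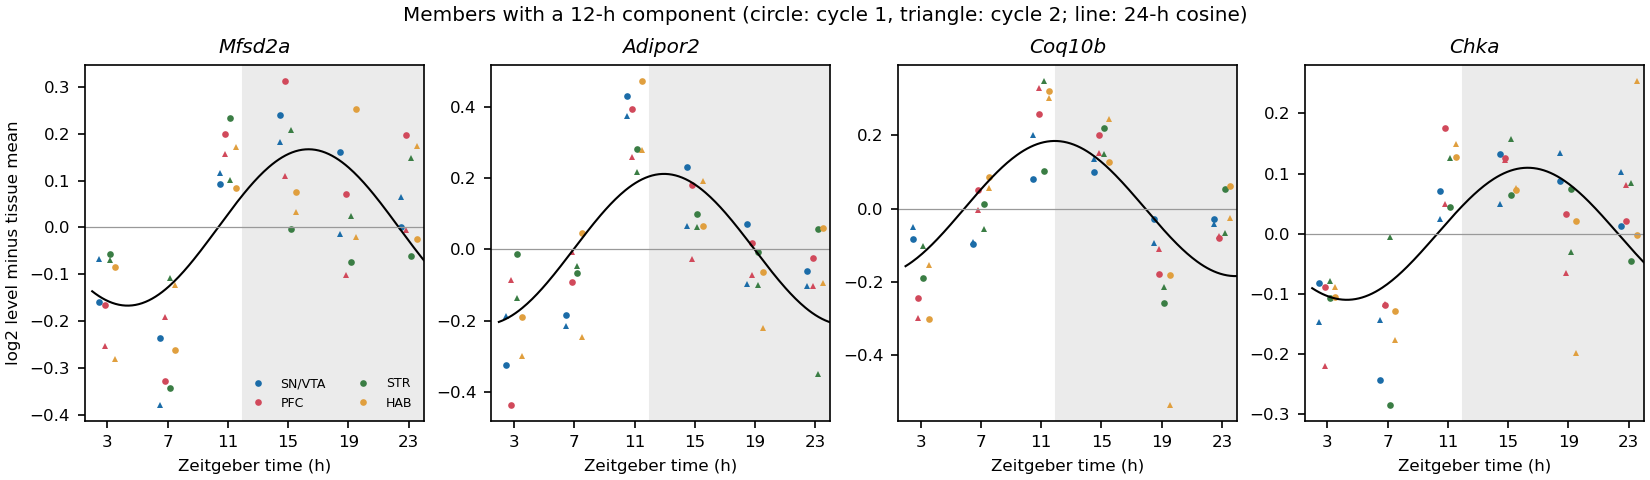
Log2 level minus the tissue mean against Zeitgeber time in hours for Mfsd2a, Adipor2, Coq10b and Chka in all 48 arrays, coloured by tissue as in the legend, with circles for cycle 1 and triangles for cycle 2, the shared 24-h cosine as a line and the dark phase shaded. Most points at ZT07 lie below the line in Mfsd2a, and most at ZT11 lie above it in Adipor2 and Coq10b.

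The second 24-h cycle was compared with the first. The spread of this difference, like that of the 12-h component, was also part of the rule's error, so the choice is tilted toward members in which it is small. No member passed limma's moderated test at an adjusted p under 0.05 (0% of all genes), and 8 (5.52%) passed at an unadjusted p under 0.05, against 7.95% of all genes. The smallest p was that of Plekhf1, with a log2 difference of −0.11, second minus first cycle (limma adjusted p = 0.445).

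Levels between tissues were not used by the rule. A log2 level at least 1 above or below the mean of the other 3 tissues, with limma's adjusted p below 0.05, was found in 16 members (11%; 9.17% of all genes). In the SN/VTA 5 members were higher (3.45%; 2.25% of all genes). Fgfr3 was 1.28 ± 0.04 (SE) higher (limma adjusted p = 5.42e-21), with 8.76, 9.03 and 9.15 (lowest, median and highest of 12 arrays) in the SN/VTA against 7.38 to 7.76 in the PFC. Cdh19 was 1.27 higher, with 7.28, 7.47 and 7.99 against 5.44, 6.00 and 6.30 in the STR. Etnppl was 1.21 higher and Plekhf1 1.16, and the other of the 5 was a predicted gene. No SN/VTA array of Fgfr3 or Cdh19 came down to the range of another tissue. Fgfr3 and Etnppl are known from astrocytes, and the mean of the 9 astrocyte markers was 9.98 in the SN/VTA against 9.24 in the PFC, whose part in these differences was not tested.

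In the SN/VTA 3 members were lower (2.07%; 1.3% of all genes). Slc24a4, a potassium-dependent sodium-calcium exchanger, differed by −1.96 on the log2 scale, with 7.01, 7.23 and 7.63 there against 9.26, 9.61 and 9.87 in the STR. In the STR it was 1.18 higher, the only member called higher there (1.03% of all genes). The mean of the other 3 tissues in that difference includes the low SN/VTA. Its median was 9.20 in the PFC, whose highest array (9.49) overlapped the STR, and 8.87 in the HAB. Ddx5 had a difference of −1.40 and Ccnd2, a cyclin of the cell cycle, one of −1.30 in the SN/VTA. In the PFC 5 members were higher (2.34% of all genes) and 0 were lower (2.94% of all genes). Azin1, an inhibitor of antizyme, was 1.30 higher, with 9.33, 9.49 and 9.68 in the PFC against 7.53, 7.81 and 7.98 in the STR. Bhlhe40 was 1.16 higher, with 9.34, 9.76 and 10.23, and Abcg2 was 1.09 higher, with 7.06, 7.27 and 7.64 against 5.44, 6.02 and 6.34 in the STR. Zfp322a was 1.02 higher and Dnajc10, a disulfide reductase, 1.01. With the choroid plexus marker mean as a covariate these last came to 0.93 and 0.95, below the threshold.

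Mettl7a1, a methyltransferase-like protein of lipid droplets, differed by −1.17 in the STR, the only member called lower there (1.16% of all genes). In the HAB, Net1 was 1.07 and Pkp2 1.04 higher (1.4% of all genes), and 0 members were lower (0.678%). Net1 read 8.18, 8.77 and 8.96 in the HAB against 6.97, 7.28 and 7.56 in the STR. Pkp2 read 7.18, 7.78 and 7.99 against 6.26, 6.51 and 6.85. Both overlapped the PFC, whose highest array read 8.25 for Net1 and 7.25 for Pkp2. With the choroid plexus marker mean as a covariate, Net1 was 1.24 and Pkp2 1.10 higher. Without the HAB array at ZT23 of cycle 2 Pkp2 was 0.98 higher, below the threshold. Over all members the median difference of the STR from the other tissues was −0.21, against −0.02 over all genes tested. The STR was the highest tissue for 13.8% of members and 25.4% of all genes, and the SN/VTA for 39.3% and 33%. With each array centred on its median the shift of all genes was 0.20 in the SN/VTA, in place of 0.05, and −0.12 in the STR.

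**Figure D5:**
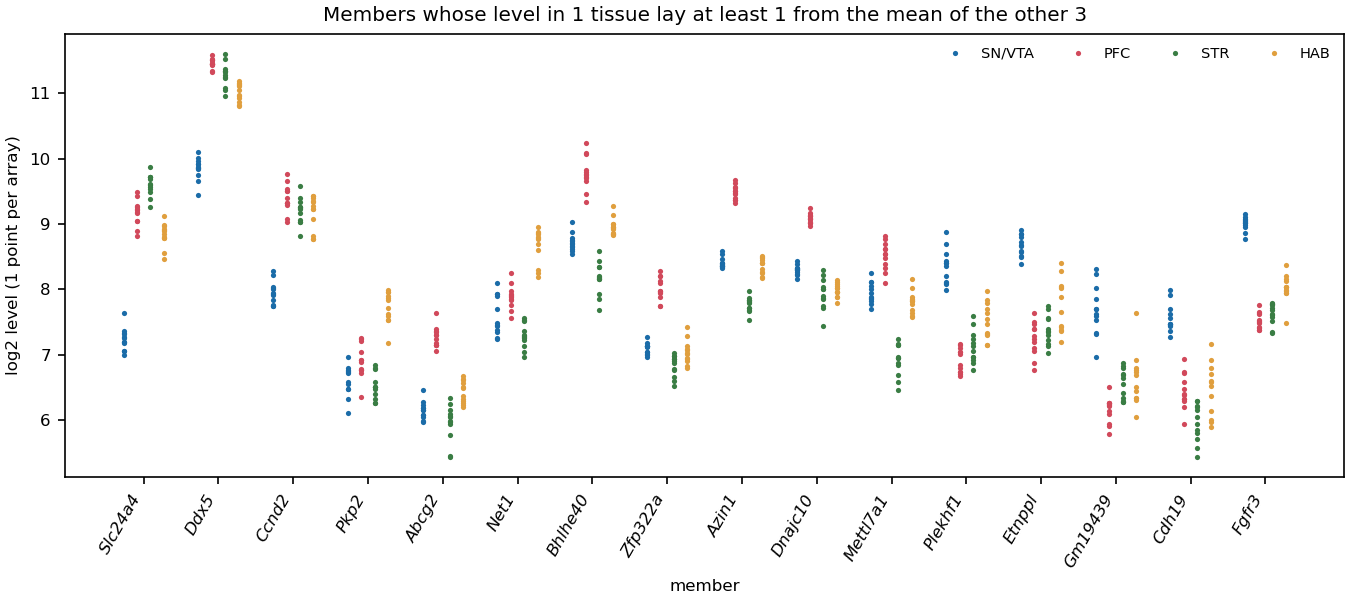
Log2 level in each of the 48 arrays (1 point per array, 12 per tissue, coloured by tissue) for the 16 members whose level in 1 tissue lay at least 1 from the mean of the other 3, ordered from lowest to highest in the SN/VTA relative to the other tissues. The SN/VTA points of Slc24a4, Ddx5 and Ccnd2 lie below those of the other tissues, and those of Fgfr3 and Cdh19 above.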

How the data were processed

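The authors deposited 1 table of log2 expression values for 41345 array rows and 48 arrays, in which each array's median lay between 5.84 and 6.07. For background correction and normalization, the method is not given in the sources used here. No value was changed. Symbols came from GEO's platform annotation: 23521 rows have 1 gene symbol, 1814 have several and 16010 are unnamed here. The row with the highest mean stood for each of 22180 genes, and 17258 with a mean of 5.05 or more were tested. Of the 145 members, 144 matched RefSeq (GRCm38.p6).

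The members and gene lists were chosen with earlier results of these data known. The role groups were gathered after the members were seen. Named genes were the 24 largest amplitudes, list members, genes past a test's threshold (or the smallest p), genes at the edges of the rule and genes of the role groups. Predicted genes were counted and not named.

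Rhythm, tissue and cycle tests used lmFit and eBayes of limma 3.58.1 (R 4.3.3) over all 48 arrays, with Benjamini-Hochberg adjustment over the genes tested, and were tested on simulated data. Figures and fits of the rule used Python 3.11.15. Alternatives were median centring, quantile normalization, no filter, replicate blocks, a choroid plexus covariate, other p thresholds and leaving out each array.

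Replicate numbers mark successive 24-h cycles in the labels' hours. Arrays of the same tissue and cycle had deviations correlated at a mean r of 0.0357 (60 pairs, −0.160 to 0.410), and arrays of the same time and cycle in other tissues likewise at 0.0357 (36 pairs, −0.121 to 0.251).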

Additional observations from a re-analysis of the deposited data

How the results depend on the processing

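The number of genes meeting the rule was 145, 112 with quantile normalization, 161 with median centring, 146 without the filter, 143 with the replicate block of cycle and 122 to 166 without 1 array. It was 36 with the 4 tissues averaged to 12 values, 367 at p under 0.01 and 64 at p under 0.0001. The cause of the drop to 36 was not tested; the average has 12 values in place of 48. The tissue difference of the rhythm stayed at 0 members under each alternative run, the replicate blocks of cycle and of time with cycle included, and the cycle difference stayed at 0. The 12-h component had 4 members under the replicate block, 3 with median centring and 3 to 5 without 1 array. The tissue level count was 16 under the replicate blocks, 14 with the choroid plexus covariate, 19 with median centring, 15 with quantile normalization and 16 to 17 without 1 array. With quantile normalization, which kept 14 of the 16, Dnajc10 in the PFC came to 0.99 and Pkp2 in the HAB to 0.998, both below the threshold of 1. No result recomputed under these alternatives changed direction.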

Other observations

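For 10 members the array carries another row with the same single symbol, and in 8 its fitted peak lay within 3 h of the row used. The other row of Chka peaked at ZT16.4, against ZT16.3, and that of Hrh3 at ZT16.7, against ZT14.2. The other row of Ero1a had a peak 11.8 h away with an amplitude of 0.02, and the other row of Raver2 a peak 6.89 h away at a mean level of 1.95. In both cases the row with the higher mean level was used.

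Some members lie close together in the genome (GRCm38.p6). The annotated spans of Vcl, which links actin to the cell membrane, and Ap3m1, a subunit of a vesicle adaptor, overlap on chromosome 14, and they peaked at ZT12.6 and ZT14.3. Lfng, a glycosyltransferase that modifies Notch, and Ttyh3, a membrane protein, lie 5.03 kb apart on chromosome 5 and peaked at ZT12.7 and ZT16.5. Slc7a5 and Banp lie 40.3 kb apart on chromosome 8 and peaked at ZT11.0 and ZT16.1. Txndc16 and Ero1a, both of the endoplasmic reticulum, lie 63.5 kb apart on chromosome 14 and peaked at ZT12.4 and ZT15.4. These pairs were picked for their distance, and no test was made of them.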
